A study of Mus musculus with 6 samples.

Results

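Splenic neutrophils lacking TIARP, the protein encoded by Steap4, were compared with wild-type splenic neutrophils. The comparison used 2 of the 6 arrays of the series, the array labelled KO neutrophil no.1-3 and the array labelled WT neutrophil no.1-3. KO mice were TIARP-/- and WT mice TIARP+/+, both on the C57BL/6 strain, and no treatment of the neutrophils is given in the labels. The mice's age and sex, the deleted part of the gene and the origin of the line are not stated in the labels. The cells were taken from spleen by magnetic selection (MACS) for Ly6G, a surface protein of mouse neutrophils. The labels give the numbers 1 to 3, but do not say whether these are mice or whether each array held RNA pooled from 3 mice. The other 4 arrays held peritoneal macrophages of the same genotypes, elicited by thioglycollate, without a TNF label or with TNFα for 24 h. With 1 array for each group, no difference had a replicate check, no test was possible and sizes are described as sizes only.

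Steap4 encodes a six-transmembrane metalloreductase that reduces iron and copper ions, and it was first described in fat cells as a protein induced by TNF. Neutrophils are short-lived phagocytes that leave the marrow as they mature. They find inflamed tissue through receptors for chemokines, complement fragments, lipid mediators and formylated peptides, and they kill microbes with stored granule proteins and an oxidative burst. The spleen holds neutrophils beside red pulp macrophages, which recycle iron from old red cells, and beside erythroid, plasma and other blood cells.

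Values are relative signals, the processed signal of a probe divided by the 75th-percentile signal of gene probes on the same array, which was 224 on the KO array and 231 on the WT array. Relative signals of different probes are not compared. A gene was called higher or lower in KO neutrophils when the KO-over-WT ratio was at least 2-fold in either direction and its probe was marked well above background on the array with the stronger signal. A difference is a bound, written as at least, where the weaker signal lacked that mark. Of 30130 genes on the array, 20586 were well above background on at least 1 of the 2 arrays, and 18999 of these on both. Steap4 itself had a relative signal of 0.161 in KO neutrophils and 0.211 in WT neutrophils, a log2 difference of -0.39 that did not reach 2-fold. In macrophages without the TNF label the Steap4 values were 0.203 in KO cells and 0.357 in WT cells, and with TNF they were 0.0379 in KO cells and 0.114 in WT cells. The single Steap4 probe may lie outside the deleted part, so it does not check the genotype labels.

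The probes behind 6 genes on which the results turn are given by the opening 30 of their 60 bases, 5′ to 3′ as deposited, with no base singled out by capitals. Steap4 is the targeted gene, Cxcr1 and Cxcr2 are chemokine receptors, Slc4a1 is the erythrocyte anion exchanger, Adgre1 is the macrophage antigen F4/80 and Prg2 is the eosinophil major basic protein. Coordinates are those of the printed bases on mm9.
Steap4, chr5:7981239-7981268, plus strand: actgcaacaaaattggtttgaagtagctgt
Cxcr1, chr1:74238389-74238418, minus strand: cgtgttgcctttcatacgtctctcaccgct
Cxcr2, chr1:74206886-74206915, plus strand: aagggtggggagttcgtgtagaagacacag
Slc4a1, chr11:102210286-102210315, minus strand: cccacaaggtctaagaaaagcgtttgccat
Adgre1, chr17:57622868-57622897, plus strand: ggtgttccagaaattctcatttaataccca
Prg2, chr2:84822799-84822828, plus strand: tgttaacttcggaatccagtccgctgtcag

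Over all 20586 genes, 733 (3.56%) were at least 2-fold higher and 1034 (5.02%) at least 2-fold lower in KO neutrophils, 8.58% in either direction, so 41.5% of the called genes were higher. The median log2 difference, KO minus WT, was -0.02, the quartiles were -0.26 and 0.27, and 79.4% of genes lay within 1.5-fold. At a 4-fold size the split was more one-sided, with 81 genes higher and 272 lower. The 8 measured spike-in probes, which serve as controls of labelling, averaged 0.41 above 0 after scaling (SD 0.42). Scaling to them therefore lowered each log2 difference by that amount, moved the median of all genes to -0.43 and left 12.4% of called genes higher. A gene called higher here by a log2 difference of less than 1 plus that shift is not called under it. Under that scaling the medians of 21 of 48 gene lists, those reported here between 0 and 0.34, turned below 0, and none of a larger size did. Differences are given relative to the 75th percentile throughout. The log2 signals of repeated spots of a probe had a median SD of 0.07 on each array, which measures scatter within an array and not between mice.

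**Figure D1:**
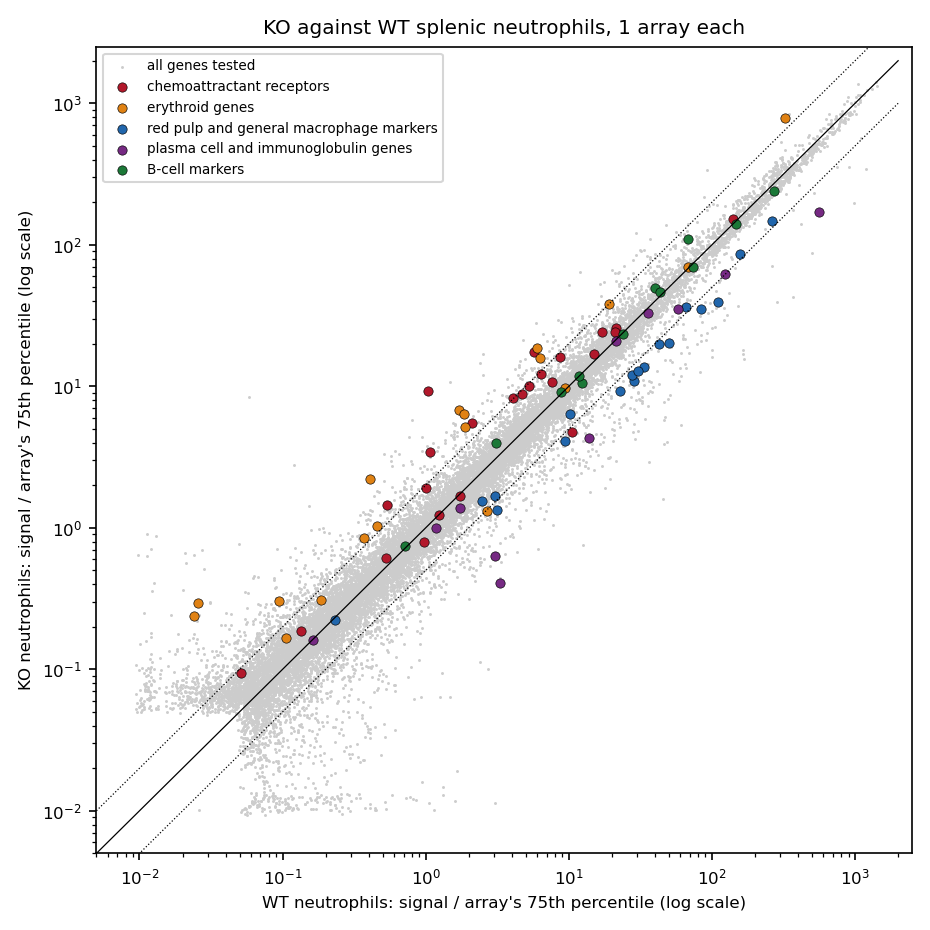
Relative signal (processed signal over the array's 75th-percentile signal, log scales) of each gene in KO neutrophils (vertical) and WT neutrophils (horizontal), 1 array each. The solid line marks equal values and dotted lines mark 2-fold. Most chemoattractant receptors and erythroid genes lie above the solid line, macrophage and plasma cell genes lie below it, and B-cell markers lie along it. Dim points at the lower left hold probes not well above background on 1 array.

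The sort label was checked against neutrophil markers, and both arrays carried them. S100a9, a calcium-binding protein abundant in neutrophil cytoplasm, had relative signals of 1246 in KO neutrophils and 1203 in WT neutrophils. Its partner S100a8 had 839.5 in KO and 660.3 in WT, and Csf3r, the G-CSF receptor, had 288 in KO and 199 in WT. Ly6g, the target of the sort, had 3.95 in KO and 3.57 in WT. These 4 genes differed by less than 2-fold between the neutrophil arrays, with log2 differences of 0.05, 0.35, 0.54 and 0.15. The other measured markers on the list differed more, from 0.58 (Cd177) to 2.37 (Lrg1). Markers of other cells were also present, and all 12 B-cell markers were well above background on both arrays. On the macrophage arrays without the TNF label, S100a9 had 183 in KO and 6.06 in WT, and S100a8 had 101 in KO and 21.6 in WT. Csf3r had 126.5 in KO and 116.5 in WT there, and Ly6g had 0.386 in KO and 0.11 in WT. In these bulk samples fewer cells of a type and less RNA per cell cannot be told apart.

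Some genes of mature neutrophils were nonetheless higher in KO neutrophils. Of 15 mature neutrophil markers 14 were on the array and well above background, 4 were higher, 0 were lower and all 14 lay above 0, with a median of 0.95 against -0.02 over all genes tested. Lrg1, a secreted leucine-rich glycoprotein of neutrophil granules, had 51.7 in KO and 10.03 in WT (log2 2.37). Mxd1, a MYC antagonist of terminally differentiating granulocytes, had 139 in KO and 48.1 in WT (1.53). Il1r2, the decoy receptor for IL-1, had 24.2 in KO and 10.6 in WT (1.19), and Cxcr2 was the fourth. Trem1, Trem3, Mmp9, Retnlg and Clec4d lay between 0.87 and 1.00, just under the 2-fold size.

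Granule protein genes moved the same way in part. Of 21 genes on the list, 19 were well above background, 5 were higher, 0 were lower, 18 lay above 0 and the median was 0.65. With spike-in scaling 0 were called and the median was 0.24, and with normexp background correction 3 were higher. The higher genes were haptoglobin Hp (217 in KO, 88.4 in WT), the collagenase Mmp8 (14.97 in KO, 6.46 in WT) and the membrane protease Mmp25. Also higher were the siderophore-binding lipocalin Lcn2 (82.2 in KO, 37.2 in WT) and the leukotriene B4 receptor gene Ltb4r1. Ltb4r1 does not encode a granule protein and is also on the chemoattractant receptor list. Other granule genes differed little. The cathelicidin Camp had 109.8 in KO and 109.4 in WT (0.00), lactoferrin Ltf was at 0.17, Ngp at 0.25 and neutrophil elastase Elane at -0.43. Of 13 measured precursor and progenitor genes 0 were called either way, and their median was -0.30, with the transcriptional repressor Gfi1 at -0.87 and the progenitor factor Myb at -0.64.

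Among 24 myeloid transcription factors, 3 were higher and 3 lower, with a median of 0.17. With spike-in scaling 1 was higher and 5 lower, with a median of -0.24. The higher genes were Mxd1, the bZIP factor Nfil3 (18.7 in KO, 7.60 in WT) and Cebpd (141 in KO, 68.0 in WT), a C/EBP factor of late granulopoiesis. The lower genes are factors of macrophages. They were Spic, which drives the red pulp macrophage programme (20.4 in KO, 49.99 in WT), the sterol-sensing liver X receptor gene Nr1h3 (8.23 in KO, 19.8 in WT) and Maf (1.78 in KO, 3.93 in WT).

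**Figure D2:**
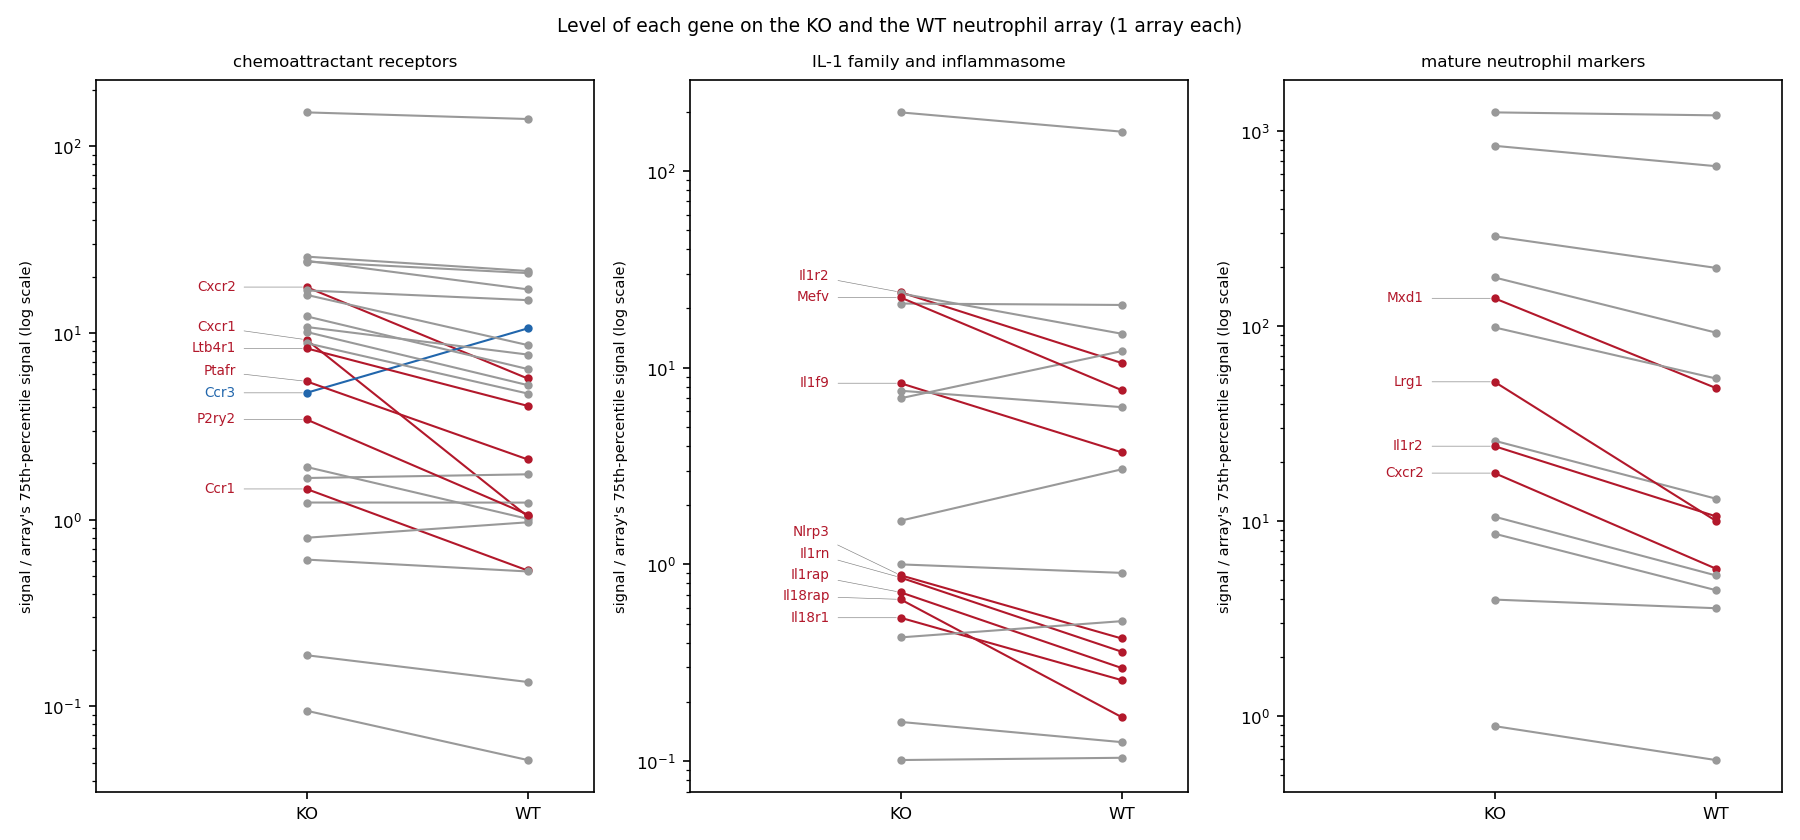
Relative signal (log scale) of each measured chemoattractant receptor, IL-1 family or inflammasome gene and mature neutrophil marker on the KO array (left) and the WT array (right), joined by a line, 1 array each. Red lines are genes at least 2-fold higher in KO, blue lines at least 2-fold lower and grey lines neither. Cxcr1 has the steepest line, 9.19 in KO against 1.04 in WT, and Ccr3 is the receptor that crosses downwards in KO.

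Some receptors by which neutrophils find their targets were higher in KO neutrophils in several ligand classes. Of 25 chemoattractant receptor genes 24 were well above background, all but Cmklr1, and 6 were higher and 1 lower, with 21 above 0 and a median of 0.69. Cxcr1, a receptor for glutamate-leucine-arginine CXC chemokines, had 9.19 in KO and 1.04 in WT (log2 3.14, 8.83-fold). Cxcr2, which binds the same class of ligand, had 17.6 in KO and 5.70 in WT (1.63). P2ry2, a nucleotide receptor, had 3.44 in KO and 1.06 in WT (1.69). The CC chemokine receptor Ccr1 had 1.46 in KO and 0.534 in WT (1.45).

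The higher genes also included 2 receptors for lipid mediators. Ptafr, the receptor for platelet-activating factor, had 5.50 in KO and 2.10 in WT (1.39), and Ltb4r1 had 8.27 in KO and 4.07 in WT (1.02). Other lipid mediator receptors on the lists were not called, with the prostanoid receptors Ptger2 at 0.61, Ptgir at 0.38, Ptger4 at 0.25 and Tbxa2r at -0.31, the leukotriene receptor Cysltr1 at 0.28 and the sphingosine phosphate receptor S1pr4 at -0.28. Receptors for formylated peptides and complement C5a fell just short of 2-fold: Fpr2 was at 0.94, C5ar1 at 0.92, C5ar2 at 0.90 and Fpr1 at 0.89. Some receptors that hold cells in marrow or guide them into or out of lymphoid tissue differed less. Cxcr4 was at 0.26, Ccr7 at 0.12 and S1pr1 at 0.17. The lower gene was Ccr3, a receptor of eosinophils (4.78 in KO, 10.6 in WT, -1.15). The 28 signalling genes downstream of these receptors held 0 calls, with a median of 0.21 (-0.20 with spike-in scaling). The largest was Pik3r5, a regulatory subunit of the chemoattractant-activated PI3 kinase, at 0.96, and Rgs1, which ends G protein signals, was at -0.72.

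Chemokine genes were split. Of 16 CC chemokine genes 10 were well above background, 2 were higher and 2 lower, and the median was 0.59. Ccl4 had 63.9 in KO and 12.1 in WT (log2 2.41), and Ccl3 had 92.0 in KO and 33.6 in WT (1.45). Both attract monocytes and lymphocytes and are made by activated neutrophils. Ccl24, an eosinophil attractant, had 0.313 in KO and 2.00 in WT (-2.68), and the monocyte attractant Ccl2 had 0.144 in KO and 0.296 in WT (-1.04). Of 14 CXC chemokine genes 11 were well above background, 2 were higher and 1 lower, with a median of 0.57. Neither higher call held with normexp background correction (0 higher, 1 lower) or spike-in scaling (0 higher, 2 lower). The neutrophil attractant Cxcl1 had 0.884 in KO and 0.368 in WT (1.26), while Cxcl2, of the same class, was at 0.88. Cxcl12, the marrow retention signal, had 0.347 in KO and 0.144 in WT (1.27), with its other probe at 0.48, and the interferon-induced Cxcl9 had 0.491 in KO and 1.57 in WT (-1.68). Cxcl5, Cxcl14 and Cxcl15 were not well above background on either array.

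Of 18 genes of the IL-1 family, its receptors and the inflammasome, 8 were higher and 0 lower in KO neutrophils, with a median of 0.51. The receptor chains were prominent among them: Il18rap (0.664 in KO, 0.167 in WT, log2 1.99), its partner Il18r1 (0.535 in KO, 0.258 in WT, 1.05), and Il1rap, the shared IL-1 receptor chain (0.721 in KO, 0.297 in WT, 1.28). Of the 3 Il1rap probes 2 lay above 0, the highest at 1.77, and the lowest was at -0.16. The antagonists of IL-1 were higher as well, the decoy Il1r2 and the receptor antagonist Il1rn (0.857 in KO, 0.360 in WT, 1.25), while Il18bp, the secreted antagonist of IL-18, had 1.67 in KO and 3.04 in WT (-0.87). Mefv, which encodes the sensor pyrin, had 22.8 in KO and 7.69 in WT (1.56), and the sensor gene Nlrp3 had 0.880 in KO and 0.420 in WT (1.07). Il1f9, a name in the array design for the IL-36γ gene, had 8.34 in KO and 3.71 in WT (1.17). The inflammasome's adaptor and effector genes were not called, with the proteases Casp1 at 0.02 and Casp4 at 0.68, the pore protein Gsdmd at 0.28 and the adaptor Pycard at -0.80. With normexp background correction 4 of the 18 were higher, and with spike-in scaling 2 were higher and 2 lower.

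Cytokine genes showed no single direction, beside 3.56% higher and 5.02% lower over all genes. Of 24 genes 20 were well above background, with 3 higher, 3 lower and a median of 0.21. With spike-in scaling 0 were higher and 4 lower, with a median of -0.20, and with normexp 2 were higher and 0 lower. The B-cell survival factor Tnfsf13b (0.867 in KO, 0.354 in WT), the macrophage growth factor Csf1 (6.72 in KO, 2.86 in WT) and Tnfsf14, or LIGHT (9.91 in KO, 4.38 in WT), were higher. Ifng, Il1a and the death ligand Tnfsf10 were lower, at dim signals of at most 0.250 in KO and at most 0.503 in WT. Tnf was at 0.84 and Il1b at 0.48, while Il6, Csf2 and Csf3 were not well above background. Of 27 genes of IL-6, G-CSF and STAT3 signalling 1 was called, the feedback inhibitor Socs3 (80.0 in KO, 36.7 in WT, log2 1.12), and 21 lay above 0 (median 0.46). With quantile normalization 0 of the 27 were called, and with spike-in scaling 0 were higher and 2 lower, with a median of 0.05. The receptors of GM-CSF, Csf2ra, Csf2rb and Csf2rb2, were at 0.86, 0.83 and 0.86, and Csf1r, the receptor of macrophage growth factor, was at -0.82. Of 28 NF-kB and TNF signalling genes 1 was called, the nuclear IkB protein gene Nfkbiz (1.05), with a median of 0.17 (-0.24 with spike-in scaling), and Tnfrsf1a, the main TNF receptor, was at 0.78.

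C-type lectin, Fc receptor and interferon-stimulated genes were called in both directions, and the Toll-like receptor list only upwards. Over all genes 3.56% were higher and 5.02% lower. Tlr13, a sensor of bacterial ribosomal RNA, was the 1 call of 21 Toll-like receptor and adaptor genes (27.5 in KO, 11.9 in WT, log2 1.22). Among 15 C-type lectin receptors the mycobacterial glycolipid receptor Clec4e was higher (27.2 in KO, 12.9 in WT), and the mannose receptor Mrc1 and the fungal receptor Clec4n were lower. Of 14 Fc receptor genes the inhibitory receptor Cd300lf was higher (122 in KO, 56.3 in WT), and the high-affinity IgG receptor Fcgr1 and the neonatal Fc receptor Fcgrt were lower. Among 28 interferon-stimulated genes 5 were higher and 1 lower, with a median of 0.22. With spike-in scaling 2 were higher and 4 lower, with a median of -0.20. The higher ones were the antiviral Rsad2 (9.39 in KO, 3.00 in WT, 1.65), Ifi44 (0.646 in KO, 0.220 in WT, 1.56), the ubiquitin-like Isg15 (52.7 in KO, 22.4 in WT, 1.24), and the membrane proteins Ifitm1 and Ifitm2. Others lay on the opposite side of 0, such as Mx1 at -0.55, Mx2 at -0.67 and Ifih1 at -0.76, and the tetherin gene Bst2 was lower (4.06 in KO, 8.82 in WT).

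Effector genes outside the granules differed gene by gene. Over all genes 8.58% were called in either direction. Among 20 measured matrix proteases and inhibitors, the ectodomain sheddases Adam17 (0.993 in KO, 0.193 in WT, log2 2.37) and Adam8 (109.8 in KO, 36.8 in WT, 1.58) were higher with Mmp8 and Mmp25. Adamdec1, a macrophage and dendritic cell protease, had 2.20 in KO and 19.5 in WT (-3.15), and Mmp13 was also lower. In leukotriene synthesis Alox5ap, the activator of 5-lipoxygenase, had 73.0 in KO and 36.0 in WT (1.02), and Alox5 itself was at 0.97. The prostanoid genes Ptgs1 (-1.05), Tbxas1 (-1.34) and Hpgd (-1.18) were lower. Of 26 integrin and selectin genes the junctional adhesion molecule Jaml (86.3 in KO, 40.3 in WT) and P-selectin Selp were higher and the integrin Itgad was lower, while Itgam was at 0.32. The NADPH oxidase list held 1 call of 21, the haem oxygenase Hmox1, and the oxidase subunits Cybb, Cyba, Ncf1 and Ncf4 lay between -0.15 and 0.55. Of 21 apoptosis regulators 1 was called, the survival gene Bcl2l1 (18.02 in KO, 8.49 in WT, 1.09), with Mcl1 at 0.15. Coagulation factor V, F5, had 3.23 in KO and 0.575 in WT (2.49).

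Markers of some other splenic cells differed between the KO and the WT array, and their part in the differences above was not tested. With 1 array per genotype, a difference between sorts cannot be told apart from one between genotypes. Macrophage markers were lower in KO neutrophils. Of 18 red pulp and general macrophage markers, all well above background, 11 were lower, 0 were higher and 18 lay below 0, with a median of -1.19. Their summed relative signal was 459 in KO and 941 in WT. Adgre1 (F4/80) had 11.0 in KO and 28.7 in WT (-1.39), the scavenger lectin Mrc1 had 9.29 in KO and 23.0 in WT (-1.30), and the haem-degrading Hmox1 had 39.2 in KO and 109 in WT (-1.48). Vcam1, Csf1r and the iron exporter Slc40a1 were short of 2-fold, between -0.86 and -0.82. Of 8 measured marginal zone and resident macrophage markers 4 were lower, among them Cd5l (12.6 in KO, 82.7 in WT) and the complement receptor Vsig4, at least 7.66-fold lower. Sialoadhesin Siglec1 was higher (1.14 in KO, 0.407 in WT), and Cd209b was at least 2.03-fold higher.

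Some genes of lipid and complement biology were lower alongside the macrophage markers, and few genes of the lysosome and iron lists. Over all genes 5.02% were lower and 3.56% higher. These lists share members with the macrophage markers, among them Cd68 and Hmox1. Of 27 lipid and sterol genes 0 were higher and 8 lower, with a median of -0.39. These included the lipoprotein Apoe (68.1 in KO, 146 in WT), the fat-cell and macrophage regulator Pparg (3.66 in KO, 8.24 in WT) and the sterol synthesis enzyme Sqle (0.986 in KO, 2.31 in WT). Of 23 measured lysosomal genes 2 were lower, Cd68 and the glucosidase gene Gaa, and the aspartic protease Ctse was higher (14.6 in KO, 2.38 in WT, log2 2.62), with a median of -0.38. The 3 chains of complement C1q, C1qa, C1qb and C1qc, were lower, at log2 differences of -1.29, -1.19 and -1.26, and with Vsig4 were among the 5 lower of 23 complement and coagulation genes. Of 20 measured STEAP and iron genes Lcn2 was higher, and Hmox1 and the iron-sensing Hfe (5.27 in KO, 11.1 in WT) were lower, with a median of -0.21. Steap3, the ferrireductase of transferrin-derived iron, was at -0.20, and Steap1 and Steap2 were not well above background.

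Erythroid genes were higher in KO neutrophils. Of 19 genes 18 were on the array and well above background, 12 were higher and 1 lower, and the median was 1.32. The α-globin gene Hba-a1 had 794 in KO and 325 in WT (log2 1.29), the haem synthesis enzyme Alas2 had 18.7 in KO and 6.03 in WT (1.63), and Slc4a1 had 6.40 in KO and 1.84 in WT (1.80). Rhd, a blood group antigen gene, had 2.21 in KO and 0.411 in WT (2.42). The transcription factor Klf1 and the membrane skeleton gene Epb42 were not well above background in WT and were at least 6.09-fold and 4.94-fold higher in KO. Gata1, a master regulator of this lineage, had 1.04 in KO and 0.454 in WT (1.19). The summed relative signal of the list was 971 in KO and 444 in WT. The mouse globin genes have near-identical copies, which a probe may not tell apart. Epor, the erythropoietin receptor, went the other way (1.31 in KO, 2.69 in WT), and the nuclear protein gene Hemgn was at 0.02. With normexp background correction 7 of the 18 were higher and 0 lower.

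Promoters of the erythroid list were searched for the letters AGATAA, a form of the GATA factor motif, on both strands. RefSeq windows (GRCm38.p6) from 250 bases before to 50 after the gene start were listed for 10 of the 19 genes. In 5 of these genes (50%) a window held the letters, against 11.2% of 32851 listed promoters. A list gene was counted if any of its windows held the letters, while all promoters were counted singly, so the shares are not counted alike. The share was 28.6% (6 of 21) for the chemoattractant receptors. The 5 erythroid genes were Rhd, Alas2, Epb42, Hemgn, which was not called, and Epor, which was lower. The windows of the higher genes Klf1, Gata1 and Hba-a1 held no AGATAA. Other forms of the motif, such as TGATAA in the Klf1 and Hba-a1 windows, were not counted. A match describes the letters and does not show that the factor binds. The windows of Rhd, Alas2 and Epb42 are shown on the gene's own strand, with AGATAA in capitals, reading TTATCT where it lies on the opposite strand.
Rhd, chr4:134864286-134864585, plus strand: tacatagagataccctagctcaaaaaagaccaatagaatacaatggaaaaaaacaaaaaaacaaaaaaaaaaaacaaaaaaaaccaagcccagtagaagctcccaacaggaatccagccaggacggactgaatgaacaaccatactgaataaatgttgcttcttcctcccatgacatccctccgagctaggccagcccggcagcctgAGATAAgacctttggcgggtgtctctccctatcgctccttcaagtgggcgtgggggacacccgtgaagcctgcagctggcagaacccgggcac
Alas2, chrX:150547167-150547466, plus strand: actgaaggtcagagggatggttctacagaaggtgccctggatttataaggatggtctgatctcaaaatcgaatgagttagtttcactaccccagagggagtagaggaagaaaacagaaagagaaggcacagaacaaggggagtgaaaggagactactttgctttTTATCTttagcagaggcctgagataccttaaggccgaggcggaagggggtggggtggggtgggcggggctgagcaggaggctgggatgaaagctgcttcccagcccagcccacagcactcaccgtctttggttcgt
Epb42, chr2:121036828-121037127, minus strand: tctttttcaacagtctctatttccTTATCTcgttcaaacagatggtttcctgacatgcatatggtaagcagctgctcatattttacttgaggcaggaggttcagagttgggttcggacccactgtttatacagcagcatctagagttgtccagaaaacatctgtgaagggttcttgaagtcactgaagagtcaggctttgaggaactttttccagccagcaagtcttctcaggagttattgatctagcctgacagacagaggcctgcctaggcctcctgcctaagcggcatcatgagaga

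The KLF letters CCACACCC were in windows of 1 of the 10 erythroid genes (10%) and 3 of 21 chemoattractant receptor genes (14.3%), against 3.56% of all promoters. The same windows were read for motifs of granulocyte factors. The C/EBP letters TTGCNNAA were in windows of 3 of 13 mature neutrophil genes (23.1%), against 10.8% of all promoters. They were in windows of 5 of 16 genes of the IL-1 family list (31.2%) and 2 of 21 of the chemoattractant receptor list (9.52%). The ETS letters GAGGAAGT, as PU.1 prefers, were in 2 of 13 (15.4%), 3 of 16 (18.8%) and 2 of 21 (9.52%) of these genes, against 3.2% of all promoters. The listed windows of Cxcr1 and Cxcr2 held none of the 4 sets of letters searched.

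Some plasma cell genes were lower in KO neutrophils, while B-cell markers were close to equal. Of 11 plasma cell and immunoglobulin genes on the array 5 were lower, 0 were higher and 0 lay above 0, with a median of -0.71. Tnfrsf17 (BCMA), the survival receptor of plasma cells, had 0.409 in KO and 3.31 in WT (log2 -3.02), and syndecan-1, Sdc1, had 0.627 in KO and 3.04 in WT (-2.28). The antibody joining chain Jchain had 172 in KO and 564 in WT (-1.72), and Derl3 and Xbp1, of the secretory pathway, were also lower. The summed relative signal was 331 in KO and 826 in WT. All 12 B-cell markers were well above background with 0 calls, a median of 0.01 (-0.40 with spike-in scaling) and summed signals of 716 in KO and 706 in WT. Ms4a1, the CD20 gene, had 139.9 in KO and 148 in WT.

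Eosinophil genes were mixed. Of 11 genes 9 were well above background, 2 were higher and 4 lower, and the median was -0.73. Prg2 had 0.760 in KO and 12.6 in WT (log2 -4.05), and the ribonucleases Ear1 and Ear2 were at -1.36 and -1.38. The lectin Siglecf, a surface marker of the same cells, was instead higher (3.18 in KO, 1.07 in WT), as was Gata1, which stands on the erythroid list too. The histamine-forming enzyme Hdc, listed for mast cells and basophils, had 122 in KO and 29.3 in WT (2.06), and the protease Mcpt4 was at least 2.36-fold higher. The defining basophil and mast cell genes Cpa3, Fcer1a, Mcpt8, Cma1 and Ms4a2 were not well above background on either array.

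The lists of the remaining cell types held 0 to 3 calls each, beside 8.58% of all genes called in either direction. Platelet genes held 1 higher gene of 12 (Selp) and a median of 0.52, with Pf4 at 0.57. Monocyte and NK-cell markers held 0 calls among 9 and 7 genes, and 1 of 11 dendritic cell genes, Bst2, was lower. T-cell markers disagreed with one another. Cd3d had 3.34 in KO and 0.508 in WT (2.71), while Cd3e and Cd3g, chains of the same receptor complex, were at -0.43 and -0.20 and Cd28 was lower (0.521 in KO, 2.14 in WT). Of 11 measured stromal and endothelial genes the smooth muscle actin Acta2 was higher (5.53 in KO, 1.55 in WT) and Stab2 lower. Xist was not well above background on either array, and the 4 Y-linked genes listed lay between -0.25 and 0.22.

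**Figure D3:**
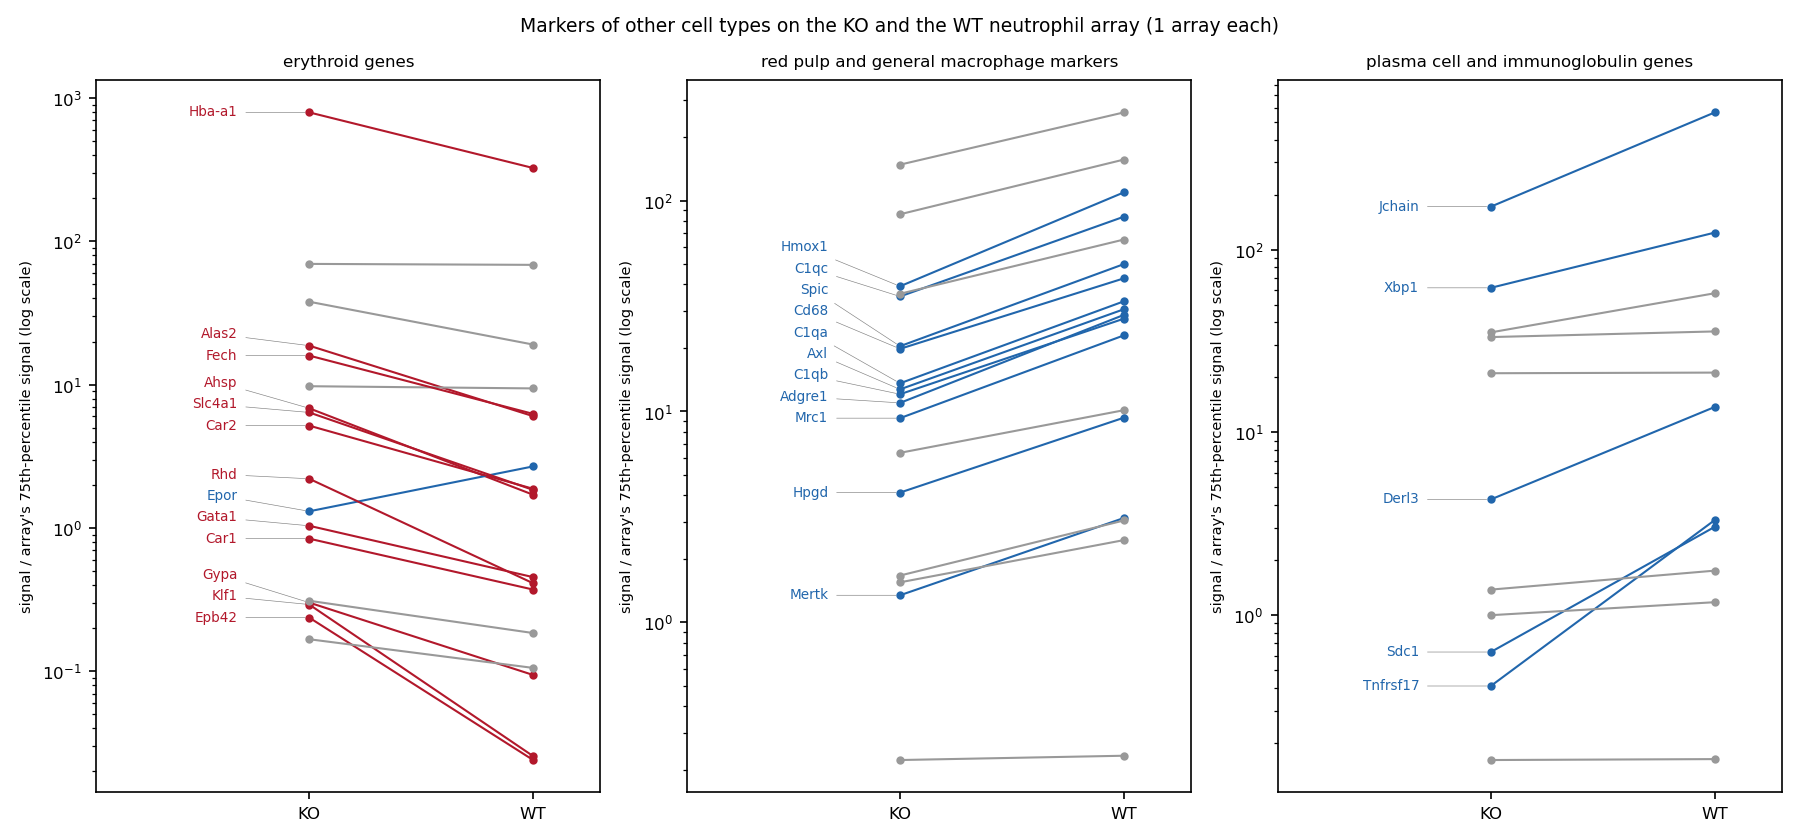
Relative signal (log scale) of erythroid, macrophage and plasma cell genes on the KO neutrophil array (left) and the WT neutrophil array (right), joined by a line, 1 array each. Red lines are genes at least 2-fold higher in KO, blue lines at least 2-fold lower and grey lines neither. All 18 macrophage and all 11 plasma cell genes lie lower in KO, and 17 of 18 erythroid genes lie higher. Klf1 and Epb42 were not well above background in WT.

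Stress genes were lower in part, beside 5.02% lower and 3.56% higher over all genes. Of 23 measured genes 0 were higher and 5 lower, with a median of -0.30. The stress cytokine Gdf15 had 5.82 in KO and 46.1 in WT (log2 -2.98), the inducible chaperone Hspa1a had 7.87 in KO and 32.4 in WT (-2.04), its cochaperone Dnajb1 had 39.5 in KO and 88.8 in WT (-1.17), and the glutathione-degrading Chac1 had 1.46 in KO and 5.46 in WT (-1.91). The constitutive chaperones Hspa8 and Hsp90ab1 were at -0.16 and -0.07. Of 22 immediate early genes, which are induced within minutes of cell handling, Fosl2 and Ier3 were higher, while Jun was at -0.03, Egr1 at -0.02 and Dusp1 at 0.46.

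Basic cellular functions held few calls, beside 8.58% of all genes called in either direction. Oxidative phosphorylation, cell cycle and ribosomal protein genes lay mostly below 0, while 18 of 24 glucose and energy genes lay above 0. Among 23 oxidative phosphorylation genes 0 were called and 1 lay above 0, with a median of -0.28. The 28 cell cycle genes also held 0 calls, with 4 above 0 and a median of -0.32. Ribosomal protein genes lay between -0.33 and 0.36 and housekeeping genes between -0.36 and 0.14. The ribosomal median was -0.11, with 3 of 23 genes above 0. MHC class II genes held 0 calls among 14, with 4 above 0 and a median of -0.12. Of 24 glucose and energy genes the glycolytic regulator Pfkfb4 was higher (24.98 in KO, 12.2 in WT) and the kinase Pdk1 lower (0.306 in KO, 0.975 in WT). Of 12 measured neighbours of Steap4 on chromosome 5 the 1 called gene was Rundc3b (0.376 in KO, 0.168 in WT), and their median was -0.09. With normexp background correction, and with the median over a gene's probes, 0 of the 12 were called.

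**Figure D4:**
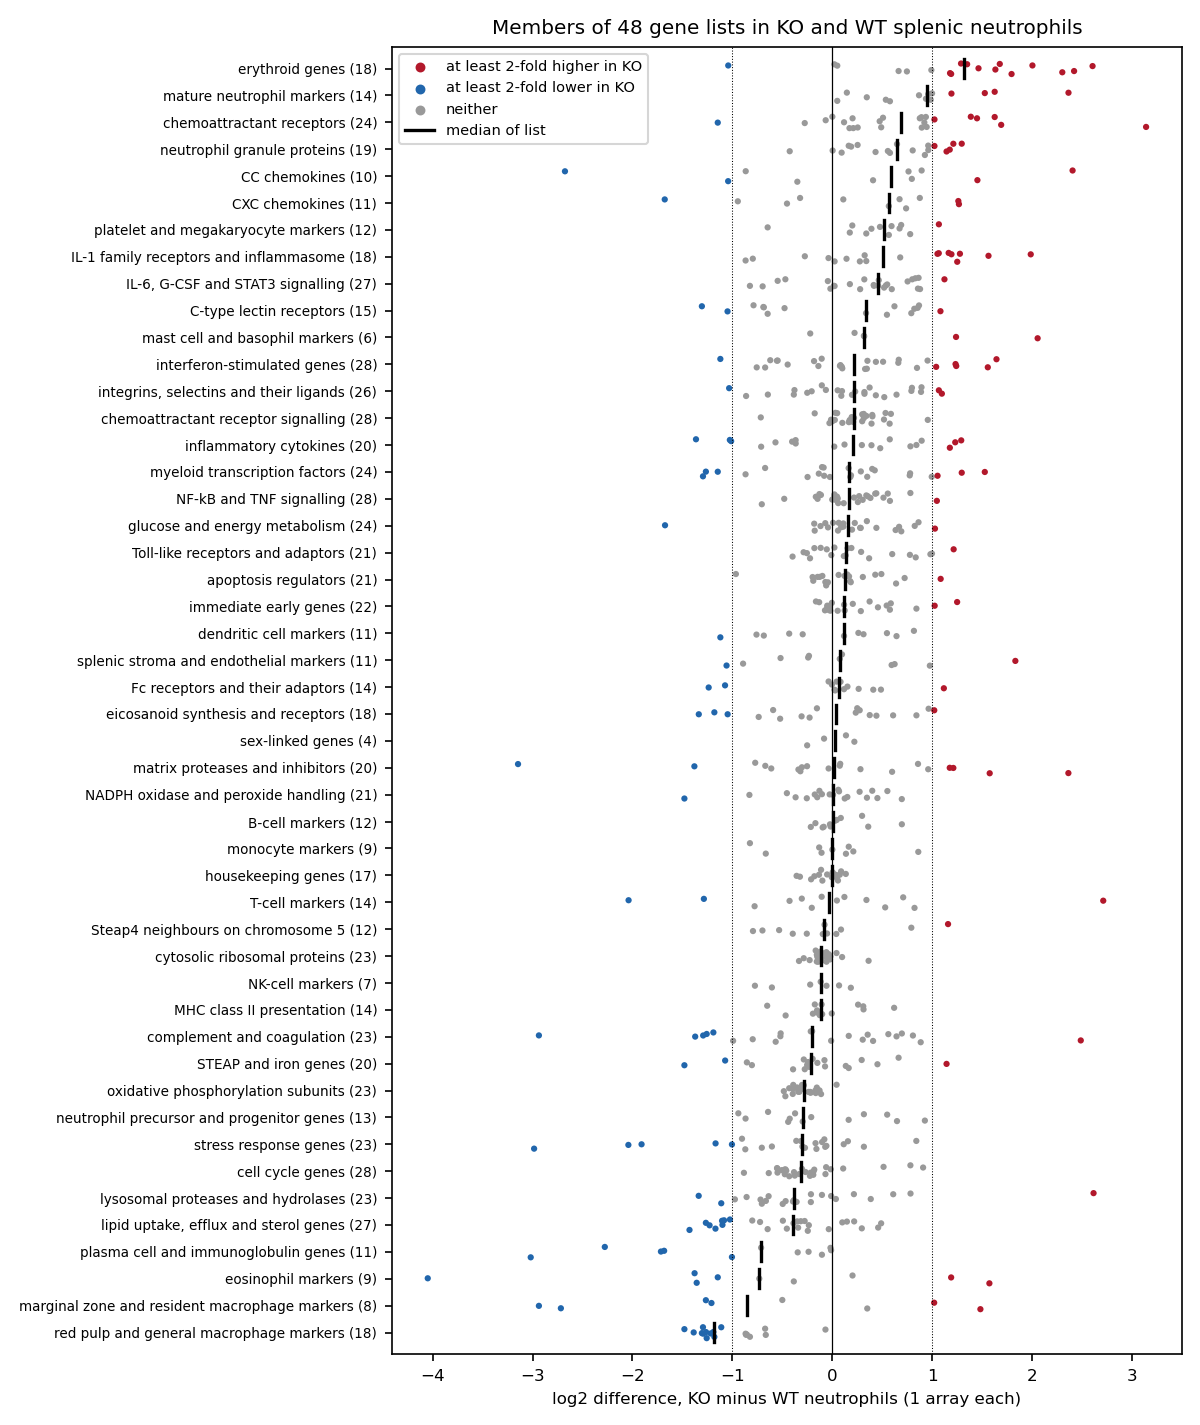
Log2 differences, KO minus WT neutrophils, of the measured members of 48 gene lists (1 point per gene, number of genes in brackets, short bar at the median), sorted by median. Red points are at least 2-fold higher in KO, blue points at least 2-fold lower and grey points neither, and dotted lines mark 2-fold. The erythroid list has the highest median, 1.32, and the red pulp macrophage list the lowest, -1.19.

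The 20 highest and 20 lowest genes were ranked among 6772 named genes that were well above background on both arrays and brighter than the median of such genes. Next to Cxcr1, Lrg1, Ccl4 and Hdc, the high end held the calcium-signalling kinase Camkk1 (10.8 in KO, 1.48 in WT), the secreted lectin-like protein Crispld2 (16.9 in KO, 2.51 in WT), the large Rab GTPase Rab44 (27.9 in KO, 5.92 in WT) and the ganglioside enzyme St3gal5 (23.5 in KO, 6.58 in WT). Hbb-b2, Hba-ps4, Slc4a1 and Aqp1, which are red cell genes or a copy of one, were 4 of the 20. The low end held, after Prg2, Adamdec1 and Gdf15, the cell cycle and complement response gene Rgcc (6.05 in KO, 46.8 in WT, log2 -2.95), the fatty acid transporter Slc27a1 (4.26 in KO, 29.1 in WT, -2.77), Cd5l, the vesicle-sorting gene Vps16 (2.75 in KO, 17.1 in WT, -2.64) and the Rac activator Tiam1 (3.14 in KO, 19.5 in WT, -2.63). Further low genes were Apoc1 (-2.27), Tmem37, Hid1, Selenom, the antibody light chain gene Igkv4-53 (-2.01), the sulfotransferase Chst1 and the thioredoxin-domain protein gene Txndc5. For Wdr92, Dnajc14 and Celf4 other probes of the same gene went the other way. Over all called genes with several measured probes, 185 of 238 (77.7%) had all probes on the same side of 0.

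Genes were also grouped by how their mean signal on the neutrophil arrays compared with that on the macrophage arrays, a split that uses the same neutrophil signals. Of 1254 genes at least 8-fold higher in the neutrophil arrays than on the macrophage arrays, 134 were higher and 292 (23.3%) lower in KO neutrophils. Of 10399 genes within 2-fold between the cell types, 202 (1.94%) were higher and 156 (1.5%) lower. Of 437 genes at least 8-fold lower in the neutrophil arrays, 22 (5.03%) were higher and 39 (8.92%) lower.

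The comparison was set beside KO against WT macrophages, which used other arrays. In macrophages without the TNF label 847 of 21024 genes (4.03%) were higher and 347 (1.65%) lower, and with TNF 1344 of 20433 (6.58%) were higher and 575 (2.81%) lower. Across 18702 genes, which are not independent replicates, the neutrophil differences correlated weakly with those of macrophages without TNF (Pearson's r 0.146, Spearman's rho 0.161) and with TNF (r 0.135, rho 0.185). Of 577 of these genes higher in KO neutrophils, 104 (18.02%) were also higher in KO macrophages without TNF, which is 14.99% of the 694 higher there. Of 715 lower genes 46 (6.43%) were also lower, which is 25.8% of 178, and 111 were higher in KO macrophages. Of the 577 higher genes 15 were lower in KO macrophages. With TNF 125 genes were higher in both and 66 lower in both, 132 were lower in neutrophils and higher in macrophages, and 34 the reverse. The labels give these arrays the same numbers, without saying what is numbered, so the cells may come from the same mice.

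Individual gene groups behaved differently in the cell types. Cxcr1, Cxcr2, Lrg1 and Il1r2 were higher in KO on all 3 comparisons, at 1.90, 3.88, 2.01 and 2.23 in macrophages without TNF, where S100a9 and Ly6g were higher too (4.92 and 1.81). Ccl4 and Mxd1 were not called there (0.43 and 0.58). The red pulp and general macrophage markers, with a median of -1.19 in neutrophils, had medians of 0.23 and 0.12 in macrophages without and with TNF. Erythroid genes had medians of 0.22 and 0.05 there, with 1 and 0 genes higher. Interferon-stimulated genes, at a median of 0.22 in neutrophils, were at 0.39 and 0.84, with 3 and 9 of the 28 higher.

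**Figure D5:**
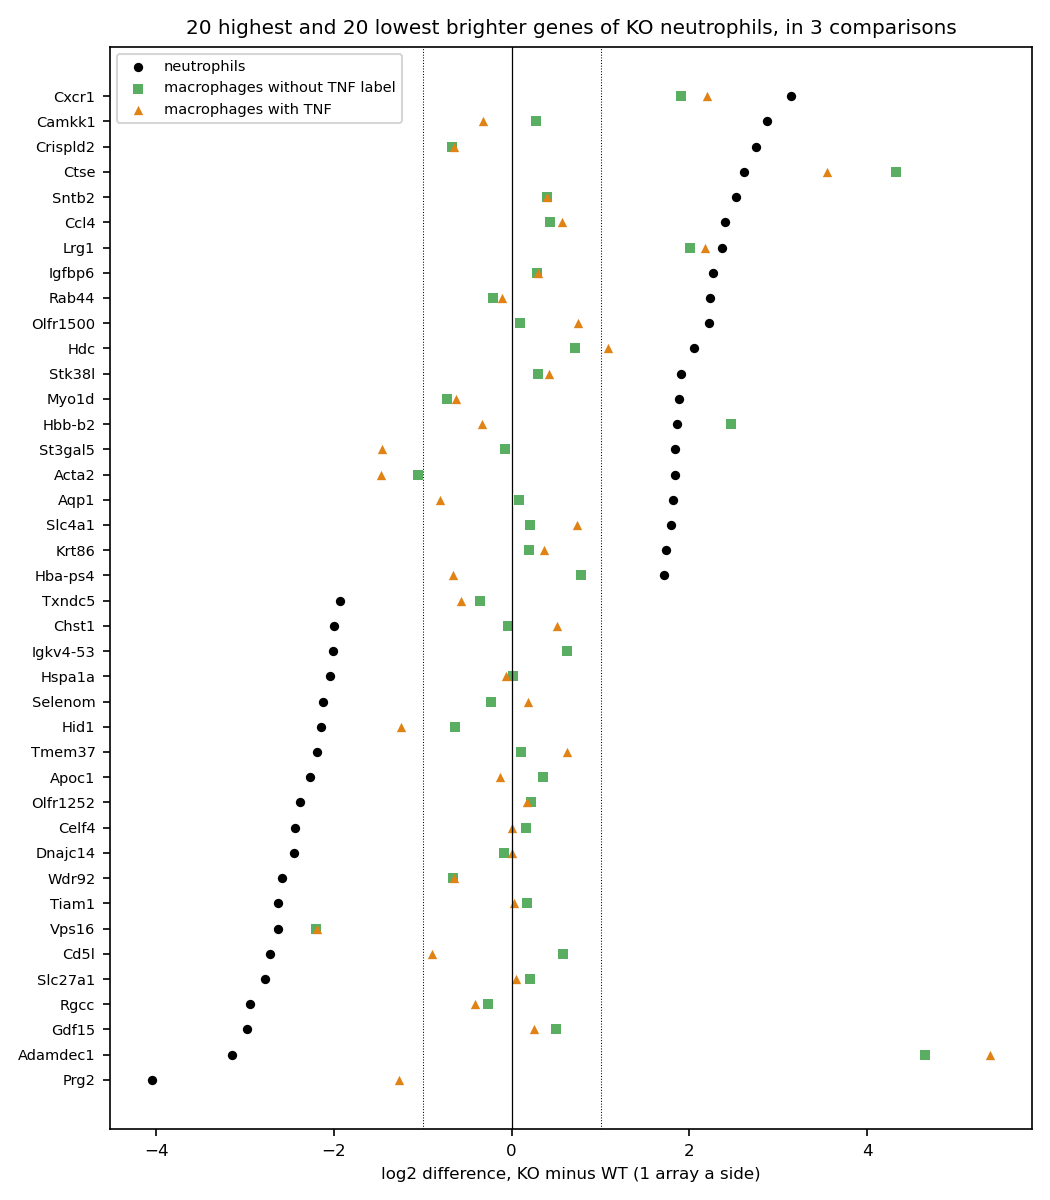
Log2 difference, KO minus WT, of the 20 highest (top) and 20 lowest (bottom) brighter genes of KO neutrophils, in neutrophils (circles), macrophages without a TNF label (squares) and macrophages with TNF (triangles), 1 array a side. Dotted lines mark 2-fold, and a symbol is left out where a gene was not well above background on either array. Bounds are drawn at their value. Cxcr1, Ctse and Lrg1 are beyond 2-fold upwards and Vps16 downwards in all 3 comparisons, and Adamdec1 and Acta2 lie on opposite sides of 0 in neutrophils and macrophages.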

How the data were processed

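Total RNA of each group was labelled with Cy3 and hybridised to 1 single-colour Agilent mouse array, per the labels' protocols. The authors took spot values from the scans with Agilent Feature Extraction, version 10.7.3.1, per the file headers and the submitters' processing notes. The deposited values are spot intensity on a linear scale, background-subtracted and detrended within the array by that software, per the file headers. Per the file headers, the deposited probe coordinates are on mm9. The 6 arrays shared 1 slide, so no slide could be tested as a batch.

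Processed intensity of gene spots (59305 of 62976 per array) was turned to log2, spots marked as outliers were left out (104 on the KO and 109 on the WT neutrophil array), repeated spots were averaged and the 75th percentile of probes was subtracted. The deposited values themselves are not on a log2 scale. Of probes, 58.5% on the KO and 57.4% on the WT array were well above background, and 0 spots were saturated. Names came from RefSeq (GRCm38.p6, for names only) by accession for 27235 probes, by symbol for 3581 and by synonym for 565. A further 8106 kept the file's name, and 16194 lincRNA probes were kept apart. Each gene took the values of its brightest probe on the neutrophil arrays. For a bound, the weaker signal was replaced by the lowest signal marked well above background on its array, unless it was itself higher. The calling step was tested on simulated data, with changes well beyond 2-fold in probes well above background on both arrays. That test covered neither bounds nor changes near 2-fold.

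Named genes are Steap4, the members of 48 gene lists and the 20 largest differences each way among brighter genes. The lists held 842 genes, of which 828 were on the array and 778 were measured. The members and lists were chosen with earlier results of these data known. Alternatives were quantile and loess normalization, scaling to a median and to spike-ins, normexp (offset 50), other filters, another probe rule and other fold sizes. Python 3.11.15, pandas 2.3.3, numpy 2.4.6, matplotlib 3.10.9, R 4.3.3 and limma 3.58.1 were used. The number of arrays, 1 per group, limits the precision.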

Additional observations from a re-analysis of the deposited data

Results flagged for a closer look

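The genes below were at least 2-fold different in 1 direction in KO neutrophils and at least 2-fold different in the opposite direction in KO macrophages both without and with TNF. With 1 array a group, none of these differences between cell types was tested.

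Adamdec1, a protease gene of macrophages and dendritic cells, was lower in KO neutrophils (log2 -3.15) and higher in KO macrophages without and with TNF (at least 4.66 and at least 5.39 on the log2 scale). Its relative signals were 2.20 in KO neutrophils and 19.5 in WT neutrophils, and 0.516 in KO macrophages and 0.00471 in WT macrophages without TNF.

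Acta2, smooth muscle actin, was higher in KO neutrophils (1.83) and lower in KO macrophages (-1.06 and -1.47). Its relative signals were 5.53 in KO neutrophils and 1.55 in WT neutrophils, and 6.93 in KO macrophages and 14.4 in WT macrophages without TNF. Cxcl12, a chemokine of stromal cells, was likewise higher in KO neutrophils (1.27) and lower in KO macrophages (-1.48 and -1.86), and was dim in neutrophils, at 0.347 in KO and 0.144 in WT.

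Stab2, a scavenger receptor of sinusoidal endothelium, was lower in KO neutrophils (-1.06) and higher in KO macrophages (4.46 without TNF and at least 5.79 with TNF). Of its 3 probes, 2 lay above 0 in the neutrophil comparison, so its direction there depends on the probe.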

How the results depend on the processing

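No paired analysis was possible because each group had 1 array, and for the same reason no replicate could be left out. Against 733 genes higher and 1034 lower as reported, scaling to the spike-in probes gave 302 and 2137, normexp background correction 270 and 490, no filter on dim probes 1823 and 1853, a 1.5-fold size 2098 and 2150, and a 4-fold size 81 and 272. The causes were not tested, beyond the shift that spike-in scaling itself applies. The other settings stayed within 1.5 times of both counts: loess (659 and 1140), the median of probes well above background on both arrays (732 and 1035), the median over a gene's probes (704 and 1006), quantile normalization (826 and 1211) and signal well above background on both arrays (585 and 770). Of 157 named genes called as reported, 126 kept the call with normexp, 116 with spike-in scaling, 147 with quantile normalization and 147 with the median over all probes. With that last setting Stab2 turned to 0.20. The CC chemokine median turned to -0.028 with no filter on dim probes. Lists were counted only over the settings that kept the 2-fold size. Over these the mature neutrophil markers had 3 to 7 genes higher, the chemoattractant receptors 4 to 9, and the red pulp macrophage markers 11 to 17 lower.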

Other observations

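A set of 75 genes was at least 2-fold higher and a set of 38 at least 2-fold lower in KO cells in all 3 comparisons, neutrophils and macrophages without and with TNF. Besides Cxcr1, Cxcr2, Lrg1, Ctse and Vps16, the following were chosen after their values were seen. Zfp979, a zinc finger gene on chromosome 4, had relative signals of 8.34 in KO neutrophils and 0.0584 in WT neutrophils (log2 at least 7.16), and 7.999 in KO macrophages and 0.182 in WT macrophages without TNF (5.45). Atp6v0e2, a proton pump subunit gene, was higher in KO neutrophils by at least 3.78 on the log2 scale and by 5.06 in macrophages without TNF. The aldo-keto reductase gene Akr1e1 had 0.104 in KO neutrophils and 0.794 in WT neutrophils (-2.94), and 0.452 in KO macrophages and 3.21 in WT macrophages without TNF (-2.83). Rab6b, a small GTPase gene, had 1.15 in WT neutrophils and was not well above background in KO neutrophils (at most -4.61). The peptide transporter gene Slc15a2 had 2.95 in KO neutrophils and 0.575 in WT neutrophils (2.36).

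Among 16194 lincRNA probes, kept apart from the genes, 7595 were measured in neutrophils, 398 of them at least 2-fold higher and 264 at least 2-fold lower in KO, a split that leans the other way from that of the genes.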
